A study of Schizosaccharomyces pombe with 28 samples.

Results

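The 53 array regions described here lie side by side on chromosome III of the fission yeast Schizosaccharomyces pombe, on the sequencing clones SPCC306, SPCC4G3 and SPCC364. They are the 27 open reading frame (ORF) features and the 26 intergenic region (IGR) features whose names start with these clone names or are alp16, rhp4b or psk1, without SPCC4G3.07c, out of 4896 ORF and 4963 IGR features, 9859 in all. The segment was chosen by the measured ratios of 2 histone marks, which were raised there in cells without swm1, so these ratios are given below as a description, with no test. Dimethylated lysine 4 (H3K4me2) and lysine 9 (H3K9me2) of histone H3 were mapped by ChIP-chip in swm1Δ cells, in which a Clonat marker replaced the swm1 ORF, against wild-type cells hybridised to the same 2-colour spotted array, with 2 arrays from 2 independent ChIP samples for each mark and region type. By the labels, the ORF and IGR arrays of a mark are parts of the same 2 slides, so they are not independent replicates. For tagged Hrp1-myc and Hrp3-myc, the immunoprecipitate was hybridised against input, on 3 arrays for each protein and region type. A further 6 arrays are labelled as immunoprecipitate with an antibody to the C-terminus of H3 against input in hrp1Δ cells. In the counts of Hrp and H3 arrays, ORF and IGR parts are counted separately here and below. The strain background of the Hrp and H3 arrays, and whether each of their 3 arrays came from a separate culture, is not given in the sources used here.

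Swm1 is a fission yeast homologue of the mammalian demethylase LSD1. H3K4 methylation is laid down in this yeast by Set1 and is typical of active genes, whereas H3K9 methylation is laid down by Clr4 and marks silent heterochromatin at centromeres, telomeres and the mating-type locus. Hrp1 and Hrp3 are chromatin remodellers of the CHD1 family. The segment is an ordinary gene-bearing stretch of the chromosome arm. Its members serve unrelated processes, among them H3K4 methylation itself (set1), DNA repair (rhp4b, also called rhp42, a homologue of human XPC), microtubule nucleation (alp16), mRNA decay (not2), kinase signalling to ribosomal protein S6 (psk1) and nucleosome assembly (nap1).

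The arrays themselves set limits on these values. The deleted gene checked the labels of the H3K4me2 arrays: the swm1 ORF had a log2 ratio of −4.04 on array C1 and −3.76 on array C2, and its IGR had −2.39 and −2.29. The H3K9me2 arrays gave 0.03 (B1) and −1.44 (B2) at this ORF and 0.81 and 0.16 at its IGR, so the deletion did not show on B1 or on the IGR part of B2. Arrays C1 and C2 had a Pearson correlation across features of 0.696 for ORFs and 0.433 for IGRs, whereas the H3K9me2 arrays B1 and B2 hardly correlated (0.059 and 0.012). Array B1 carries conflicting dye labels, and its ORF part was read with wild type in Cy3, which is what the IGR label of the same slide gives. In each set of 3 Hrp arrays, 1 array correlated negatively with the other two (−0.13 to −0.288) while the deposited values of that array followed Cy5, although its label gives the immunoprecipitate in Cy3. The 6 arrays labelled H3 hold the values of the 6 Hrp1-myc arrays, as detailed with their values below, and were not counted as a separate measurement.

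Most of the segment lies between related repeats. The wtf genes are a repeated family of spore killers and their pseudogenes, most of them on chromosome III. The locus wtf8 (III:427445-428763, plus strand) lies just before SPCC306.11, and the locus wtf9 (III:487167-489016, plus strand) lies just after SPCC364.01, in the RefSeq annotation of the ASM294v3 assembly. Each has an array feature whose name calls it a pseudogene. The stretches III:427170-428951 and III:486882-488706 aligned on the same strand over 1835 columns with 90.8% identity, 105 mismatches and 15 gap openings, and 57.9 kb lie between them. The wtf8 stretch matched chromosome III at 16 positions, and these are neighbours among them. Beside wtf9 the annotation also lists 3 long terminal repeats (III:486575-486925, III:489072-489396 and III:489375-489697). The alignment holds a stretch of 360 bases with no mismatch, III:428554-428913 in wtf8 and III:488310-488669 in wtf9. Its first 180 bases are shown in capitals after the 60 bases before them, which differ between the copies (wtf8 copy III:428494-428733, wtf9 copy III:488250-488489, both plus strand). They are shown because most of the members lie between these copies. The stretches of raised ratios described below do not all begin or end there, and a link to the repeats was not tested.
wtf8 copy: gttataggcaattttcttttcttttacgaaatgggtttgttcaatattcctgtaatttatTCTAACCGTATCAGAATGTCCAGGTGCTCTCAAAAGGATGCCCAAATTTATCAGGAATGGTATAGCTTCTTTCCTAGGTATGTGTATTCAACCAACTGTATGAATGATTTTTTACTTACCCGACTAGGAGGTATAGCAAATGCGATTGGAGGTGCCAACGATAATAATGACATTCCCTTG
wtf9 copy: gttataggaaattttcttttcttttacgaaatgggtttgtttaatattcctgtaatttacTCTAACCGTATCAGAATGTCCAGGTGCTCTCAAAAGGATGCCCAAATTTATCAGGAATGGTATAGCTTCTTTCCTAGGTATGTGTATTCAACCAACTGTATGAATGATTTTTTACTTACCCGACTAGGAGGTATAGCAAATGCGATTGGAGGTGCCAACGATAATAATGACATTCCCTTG

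Of the members, 21 ORFs and 20 IGRs lie between these copies, and the 6 ORFs and 6 IGRs of SPCC306.02c to SPCC306.08c lie before wtf8. Another 5 ORFs between the copies are not members (SPCC4G3.07c, mus81, aph1, vps3 and rpl17-2), and neither are cnd2 and cap before wtf8. This division was made after the values were seen.

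H3K4me2 over the ORFs was higher in swm1Δ than in wild-type cells along most of the segment. The median log2 ratio of the 27 ORFs was 1.07, a 2.10-fold ratio, against −0.02 over all ORFs, and the arrays gave medians of 1.13 (C1) and 0.94 (C2). Of the members, 15 had a mean log2 ratio of at least 1, as had 4.45% of all ORFs. The methods called a region high when 3 or more of its 4 data points reached a ratio of 2.0, and by this rule 11 members were high, as were 3.29% of all ORFs. The members of the clones differed. Their median was 0.00 over the 7 member ORFs of SPCC306, 1.18 over the 16 of SPCC4G3 and 1.36 over the 4 of SPCC364. Within SPCC306 only SPCC306.08c and SPCC306.11 had a mean of at least 1. Apart from wtf8 and SPCC4G3.07c, given below, the clones hold other ORFs that are named by gene symbol and are not members. Their means were 0.52 at cnd2 and 0.96 at cap (SPCC306), 1.40 at mus81 and 0.92 at aph1 (SPCC4G3), and 0.45 at vps3 and 0.32 at rpl17-2 (SPCC364). The clone medians therefore describe the members and not every ORF of a clone. The 6 member ORFs before wtf8 had a median of −0.03, and the 15 ORFs before SPCC306.11, members or not, had 0.07. The 21 members between the wtf copies had 1.34, and the 5 non-members there had 0.92. All 26 ORFs between the copies lay above 0 on both arrays, as did 37.3% of all ORFs.

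**Figure D1:**
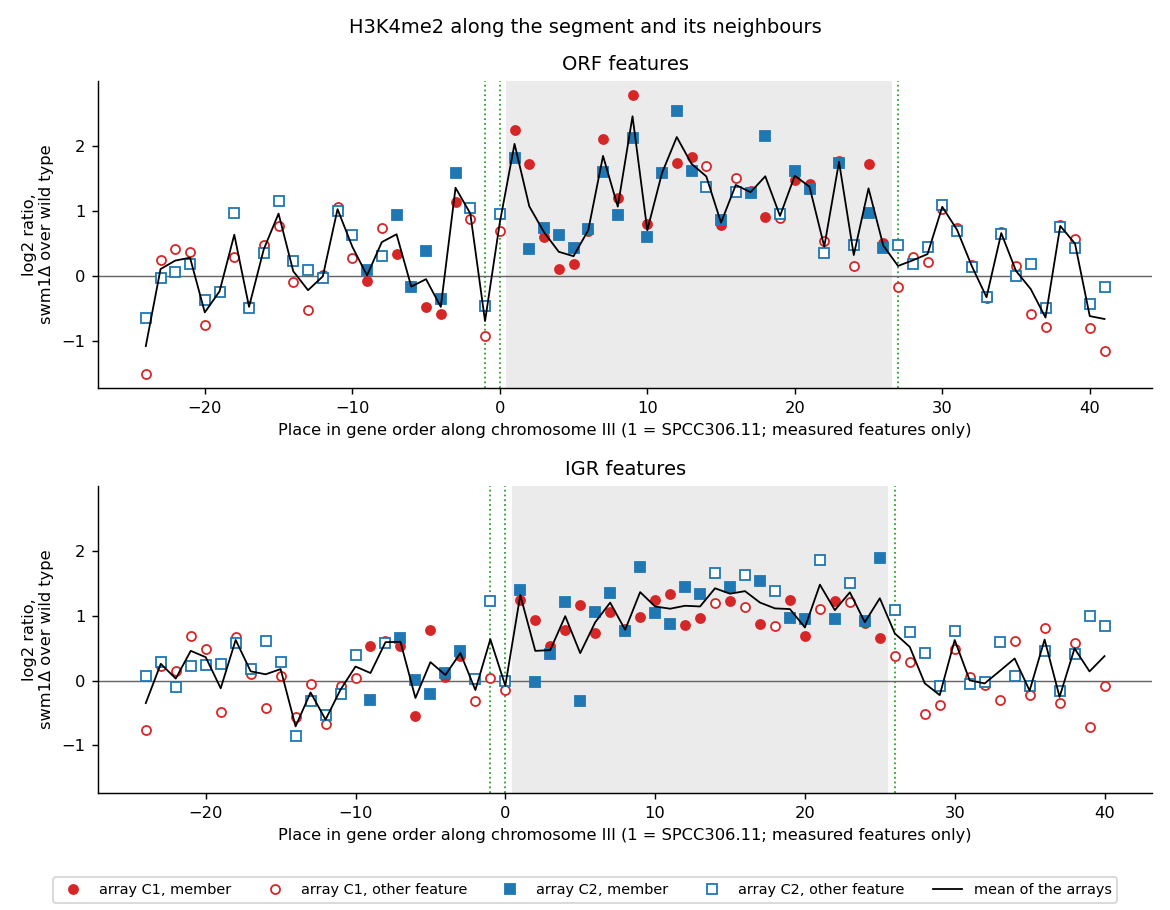
H3K4me2 log2 ratio of swm1Δ over wild type (vertical axis) of each ORF feature (top) and IGR feature (bottom) by place in gene order along chromosome III (horizontal axis), with circles for array C1, squares for array C2, filled symbols for members and open symbols for other features. The line joins the means of the 2 arrays, green dotted lines mark features named for wtf8 and wtf9, and the grey band holds the features between them, where all 26 ORFs had a mean above 0.

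In SPCC306, the higher ratios were those of the ORFs nearest to wtf8. SPCC306.02c (yip3) had log2 ratios of −0.08 and 0.09 on arrays C1 and C2, and set1, the H3K4 methyltransferase, had 0.34 and 0.94. The lowest members were SPCC306.07c, with −0.60 and −0.37, and SPCC306.05c (ins1, an Insig homologue that regulates sterol synthesis), with −0.16 and −0.18. The values of these ORFs lie on both sides of 0. SPCC306.08c (mdh1, a malate dehydrogenase) was the exception among the members before wtf8, with 1.13 and 1.58. SPCC306.11, the first ORF beyond wtf8 and of no named function in the files, had the clone's largest ratio, 2.25 and 1.81 (mean 2.03 ± 0.31, SD, n = 2 arrays), and passed 2-fold in all 4 data points.

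In SPCC4G3, all 16 member ORFs lay above 0 on both arrays, but their means spread from 0.30 to 2.46 on the log2 scale. The largest were at SPCC4G3.12c, with 2.78 and 2.13 (2.46 ± 0.46, SD, n = 2, the highest mean among all 4896 ORFs), at SPCC4G3.09c (gyp3, a GTPase-activating protein), with 1.74 and 2.53, and at SPCC4G3.14 (mdj1, a mitochondrial DnaJ chaperone), with 2.10 and 1.59. These ORFs lie apart from each other, with lower ones between them. The smallest were at SPCC4G3.16 (rib2), with 0.18 and 0.42, and at SPCC4G3.17 (hdd1), with 0.11 and 0.63. Both lie near the wtf8 end. Of the genes named in the rule, psk1 had 1.83 and 1.62, and rhp4b had 1.59 and 1.57. The component of the gamma-tubulin complex alp16 had 1.72 on C1 and 0.42 on C2, so its arrays differed more than most. SPCC4G3.07c encodes Swp1 (phf1), a partner of Swm1, and although it was left out of the members its ratios of 1.69 and 1.37 lay within their range.

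In SPCC364, the clone at the far end, SPCC364.04c (coy1, a Golgi golgin) had 1.77 and 1.74, SPCC364.06 (nap1) had 1.40 and 1.33, and SPCC364.02c (bis1) had 1.73 and 0.96. The last member, SPCC364.01 (cif1), had 0.50 and 0.43, the smallest values among the members of the clone. These lay above 0 on both arrays but below the 2-fold cut-off. The non-members vps3 and rpl17-2 of the same clone had still lower means, 0.45 and 0.32, against 0.46 at cif1.

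The neighbours outside the members show where the higher ratios stop. The 15 ORFs before the first member had a median log2 ratio of 0.10. The nearest of them lay mostly near 0. SPCC1682.12c had −0.09 and 0.23, SPCC1682.13 (laf2) had −0.53 and 0.08, rpl19-2 had 0.01 and −0.04, and rpt4, a proteasome subunit, had 0.27 and 0.62. SPCC1682.15 (mug122) stood above these with 1.06 and 0.99, so single ORFs outside the segment also reached a log2 ratio near 1. Between mdh1 and SPCC306.11 lie cap, with 0.87 and 1.04, and 2 features that the gene table assigns to wtf8, with 0.69 and 0.94 in the feature named a pseudogene and −0.93 and −0.47 in the other. A wtf probe can take up DNA of several family members, so its value is not that of 1 locus. After the last member, the feature named a wtf9 pseudogene had −0.18 and 0.48, SPCC970.10c (brl2, a ubiquitin ligase subunit) had 0.29 and 0.18, and SPCC970.09 (sec8, an exocyst subunit) had 0.22 and 0.45. SPCC970.08 (kcs1, an inositol phosphate kinase) had 1.03 and 1.09, and SPCC970.07c (raf2, a subunit of the Clr4 complex) had 0.73 and 0.69. The 15 ORFs after the segment had a median of 0.15.

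A running median over 5 neighbouring ORFs was used to describe the extent of the higher ratios. The unbroken stretch with a running median of at least 0.5 held 27 ORFs from SPCC306.08c to SPCC364.04c, 20 of them members, over 60.68 kb (III:421646-482327). Its ORFs had a median log2 ratio of 1.29. The next longest such stretch among the 4682 ORFs placed on the chromosomes held 10 ORFs, on chromosome I. Over the IGRs the stretch held 24 features, from IGR-SPCC4G3.16 to IGR-SPCC970.08 (60.02 kb), and the next longest held 5.

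Single IGRs varied less than single ORFs in H3K4me2. Their H3K4me2 median was 0.95 over the 26 members, against −0.00 over all IGRs, with 0.28 in SPCC306, 1.11 in SPCC4G3 and 0.99 in SPCC364. The 6 IGR members before wtf8 had a median of 0.20 and the 20 between the copies had 1.10. All 25 IGRs between the copies had means between 0.42 and 1.48, with an SD across IGRs of 0.30, against 0.60 across the 26 ORFs there. The SD was also lower over all IGRs of the array (0.46) than over all ORFs (0.59). Of the 25 IGRs between the copies 23 lay above 0 on both arrays, as did 30.3% of all IGRs. A mean of at least 1 was found at 17 of them, as at 3.39% of all IGRs. The rule of the methods called 3 members high, as were 1.95% of all IGRs, with 3 data points for each IGR because 1 scanner part was not used here. With fewer data points to pass, 10 IGR members were high without C1, as were 3.83% of all IGRs, and 8 without C2, as were 4.17%.

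At the edges, the IGR values changed within a few features. IGR-SPCC306.08c had log2 ratios of 0.39 and 0.46 and the IGR named for the wtf8 pseudogene had −0.15 and −0.01. The other IGR named for wtf8 had 0.04 on C1 and 1.23 on C2, so the arrays differed at this edge. IGR-SPCC306.11 followed with 1.24 and 1.40 (1.32 ± 0.11, SD, n = 2). The largest means were at IGR-SPCC4G3.12c, with 0.98 and 1.74, at IGR-SPCC4G3.06c (mrpl4, a mitochondrial ribosomal protein), with 1.23 and 1.45, and at IGR-SPCC306.11. At the other end IGR-SPCC364.01 had 0.65 and 1.89, and the next IGR, named for wtf9, had 0.37 and 1.08. IGR-SPCC970.09 followed with 0.28 and 0.75 and IGR-SPCC970.08 with −0.51 and 0.43, so arrays C1 and C2 placed this end differently. The 15 IGRs after the segment had a median of 0.15.

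H3K9me2 had a median above 0 on each array along the segment, with far more spread between its arrays and with array B1 in the reading described above. The median log2 ratio of the 27 ORFs was 0.90, 1.21 on B1 and 0.64 on B2, against 0.02 over all ORFs. With array B1 read by the label of its ORF part the median was −0.33, so its sign rests on how those dyes are read, and only the B2 values of the ORFs do not depend on it. Of the members, 14 lay above 0 on both arrays, as did 27.2% of all ORFs, 13 had a mean of at least 1, as had 11.9%, and 5 were high by the rule of the methods, as were 3.62%. With fewer data points to pass, 9 were high without B1, as were 9.64% of all ORFs, and 15 without B2, as were 20.7%. Over the members alone, the median was 0.37 in SPCC306 and 0.87 in SPCC364. The 16 member ORFs of SPCC4G3, with means between −0.28 and 2.90, had the highest of the 3 clone medians. On B1, as first read, the 6 member ORFs before wtf8 had a median of 1.33 and the 21 members between the wtf copies 1.09. On B2 these medians were −0.61 and 0.92, so the arrays differed on whether the ratios before wtf8 were raised.

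**Figure D2:**
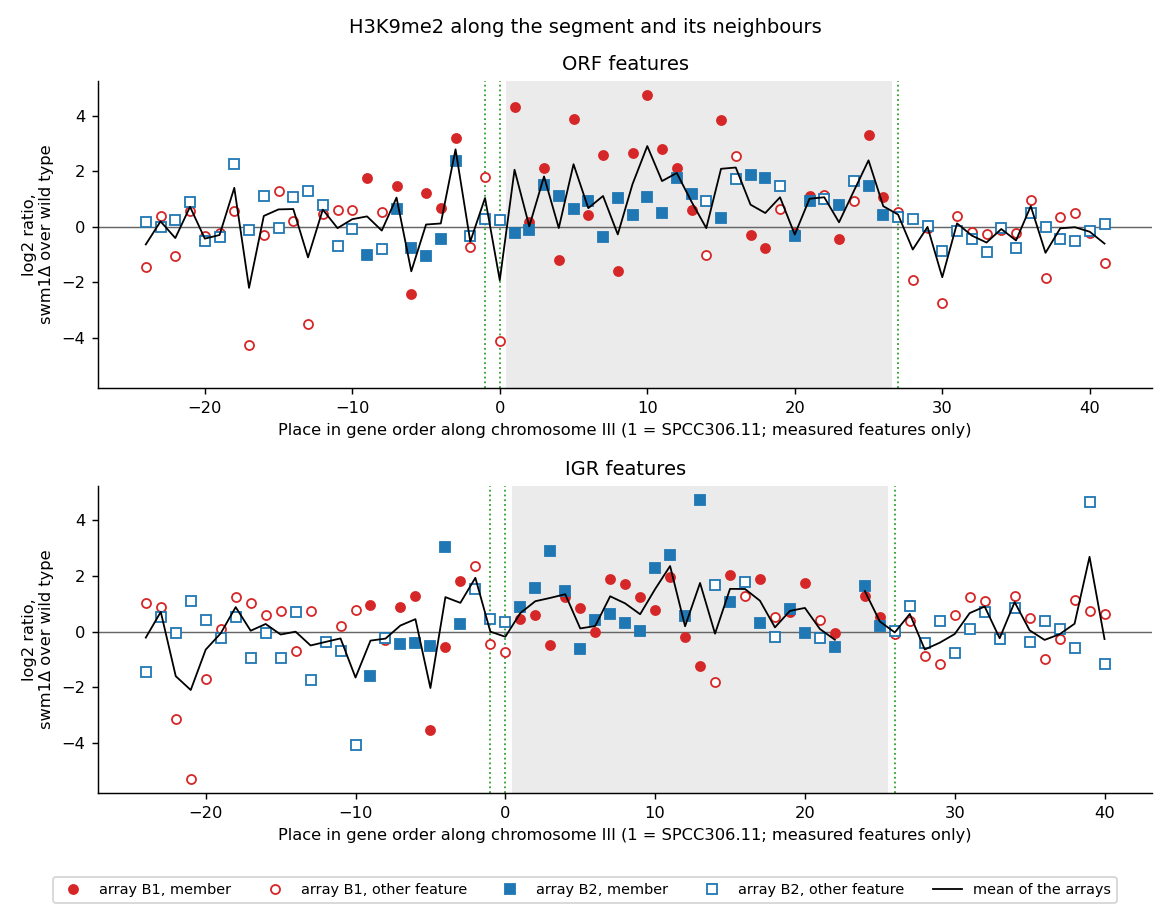
H3K9me2 log2 ratio of swm1Δ over wild type (vertical axis) of each ORF feature (top) and IGR feature (bottom) by place in gene order along chromosome III (horizontal axis), with circles for array B1, squares for array B2, filled symbols for members and open symbols for other features. The line joins the means, green dotted lines mark features named for wtf8 and wtf9, and the grey band holds the features between them, where 16 of 26 ORFs lay above 0 on both arrays.

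The ORFs with the largest H3K9me2 ratios differed from those of H3K4me2. SPCC4G3.11 (nur1, a nuclear rim protein) had the largest mean, from log2 ratios of 4.74 on B1 and 1.06 on B2 (2.90 ± 2.60, SD, n = 2), while its H3K4me2 ratios were 0.80 and 0.60. With B1 read by its ORF label its mean was −1.84, the last but one of the 27 members, and the largest was that of SPCC4G3.13c (cue1, 1.31), so this order rests on B1. In the first reading the largest in SPCC306 was mdh1, with 3.19 and 2.38. It and SPCC4G3.09c (2.12 and 1.75) were the only ORF members high for both marks. In SPCC364 it was bis1, with 3.30 and 1.47. These ORFs were above 2-fold on both arrays. Others were high on B1 alone, as SPCC306.11 with 4.32 and −0.22. Of the genes named in the rule, psk1 had 0.61 and 1.19, rhp4b had 2.79 and 0.49, and alp16 had 0.16 and −0.14, near 0 on both arrays.

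The extent of the H3K9me2 stretch changed with the features and arrays used. The running median over 5 ORFs stayed at 0.5 or more over 26 ORFs from SPCC306.11 to SPCC364.01 (55.6 kb, median 1.06), which are the 26 ORFs between the copies. Over the IGRs it did so over 24 features from IGR-SPCC306.07c, before wtf8, to IGR-SPCC4G3.01, short of wtf9 (52.7 kb). Without B1 the ORF stretch held 16 ORFs from SPCC4G3.11 to SPCC364.02c, without B2 it held 9 from SPCC4G3.14 to SPCC4G3.06c, and with B1 read by its ORF label no stretch held a member. The next longest stretch elsewhere held 16 ORFs or 13 IGRs, against 10 ORFs for H3K4me2. The 15 ORFs before SPCC306.11 had a median log2 ratio of 0.12, and the 15 after the last member had −0.18.

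Over the IGRs, the deposited H3K9me2 ratios had a median of 0.94 over the 26 members, against 0.12 over all IGRs, and 0.73 once each array was centred on its median. The clone medians were 0.45, 1.11 and 0.61 in number order. Of the members, 14 lay above 0 on both arrays, as did 29.0% of all IGRs, and 4 were high, as were 4.77%. Without B1 the median was 0.49, against −0.06 over all IGRs, and without B2 it was 0.86, against 0.47, with 11 members high, as were 22.9% of all IGRs. The largest were at IGR-rhp4b, with 1.95 on B1 and 2.77 on B2, at IGR-psk1, with −1.23 and 4.74, and at IGR-SPCC4G3.06c, with 2.03 and 1.05. The arrays disagreed in sign at IGR-psk1, so its mean of 1.75 rests on B2 alone.

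The ratios can also be split into the signal of each dye, given relative to the median of all features. This sets different probes beside each other, so the values describe the members' signal on the array and are no test of which strain changed. The ORF members between the wtf copies had a median H3K4me2 dye level of 2.35 (C1) and 2.45 (C2) times the median of all features in swm1Δ, against 0.86 and 0.92 times in wild type. The IGR members there had 2.15 and 2.55 times in swm1Δ, against 1.08 and 0.95 times in wild type. On the H3K9me2 arrays the swm1Δ levels were 2.50 (ORF, B1), 1.87 (ORF, B2) and 2.23 (IGR, B2) times, against 0.66, 1.24 and 1.07 times in wild type. Read by its ORF label, B1 instead gives 0.66 times in swm1Δ, against 2.50 times in wild type. A level does not follow the ratio from probe to probe. The 6 ORF members before wtf8 had H3K4me2 dye levels of 1.88 (C1) and 2.44 (C2) times in swm1Δ, against 1.56 and 1.10 times in wild type, and the 6 IGR members there had 0.54 and 0.53 times in swm1Δ, against 0.58 and 0.51 times in wild type. On the H3K9me2 arrays these 6 ORFs had 1.27 (B1, as first read) and 1.77 (B2) times in swm1Δ, against 0.22 and 1.38 times in wild type. The 6 IGRs had 0.50 times (B2) in swm1Δ, against 0.75 times in wild type. No array of swm1Δ input DNA was analysed here, so more of a mark per nucleosome and more copies of the segment's DNA in swm1Δ cells cannot be told apart in any ratio given above. In the strains of the Hrp arrays, the input dye by label of the members between the copies lay between 0.95 and 1.16 times the median on 11 of 12 arrays and at 1.76 times on the other, the Hrp1 IGR array labelled slide1. The deposited values of that array follow Cy5, so which of its dyes held the input is in doubt, and its Cy3 level was 1.14 times. On the other arrays that follow Cy5, the Cy3 level was 1.21 (Hrp1 ORF slide2), 1.17 (Hrp3 ORF slide1) and 1.13 times (Hrp3 IGR K080D).

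**Figure D3:**
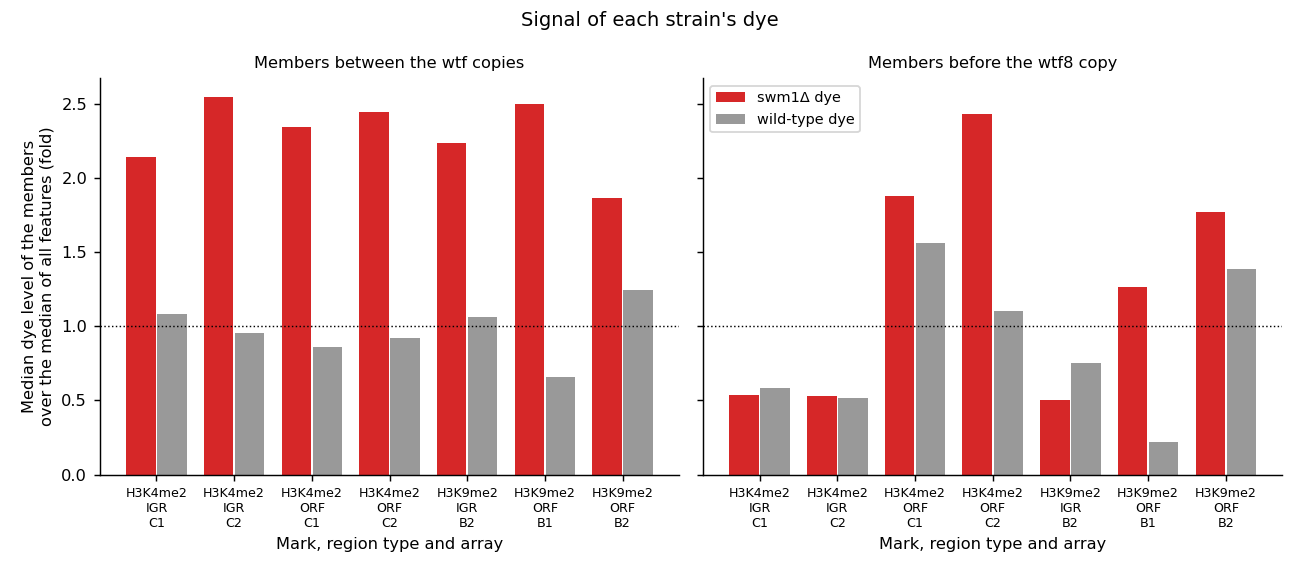
Median background-corrected level of the members in the dye of swm1Δ (red) and of wild type (grey), each divided by the median of all features in that dye (vertical axis), for each array with scanner intensities (horizontal axis). Left are the members between the wtf copies, where the swm1Δ bars stand between 1.87 and 2.55 and the wild-type bars between 0.66 and 1.24 with B1 ORF read as described (by its ORF label its 2 bars, 2.50 and 0.66, change places), and right the 6 members before wtf8 of each region type.

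Hrp1 and Hrp3 values were not used to pick the members and were tested with limma on 3 arrays against 0, with Benjamini-Hochberg adjustment over all features of the region type. With the dyes as labelled, no member was called in any of the 4 sets, and neither was any other feature (0.0% in each), while an unadjusted p under 0.05 was found for Hrp1 at 0 ORF and 2 IGR members, against 6.35% and 5.8% of all features, and for Hrp3 at 3 ORF and 3 IGR members, against 6.6% and 4.13%. The median log2 ratio of immunoprecipitate over input was −0.05 for Hrp1 and 0.12 for Hrp3 over the ORFs, and 0.11 for Hrp1 and −0.02 for Hrp3 over the IGRs, against 0.00, 0.02, 0.01 and 0.01 over all features in the same order. By the labels, the largest Hrp3 mean over ORFs was that of SPCC306.11, from 0.06, 1.60 and 1.95 on the 3 arrays (limma, adjusted p = 0.69), and the smallest that of SPCC4G3.11 (−0.60). With the array that follows Cy5 turned, the largest was that of SPCC4G3.01 (ser3, limma, adjusted p = 0.12), just above SPCC306.11 (1.16 ± 0.37, SE), and the smallest that of SPCC4G3.16 (rib2, limma, adjusted p = 0.0514).

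**Figure D4:**
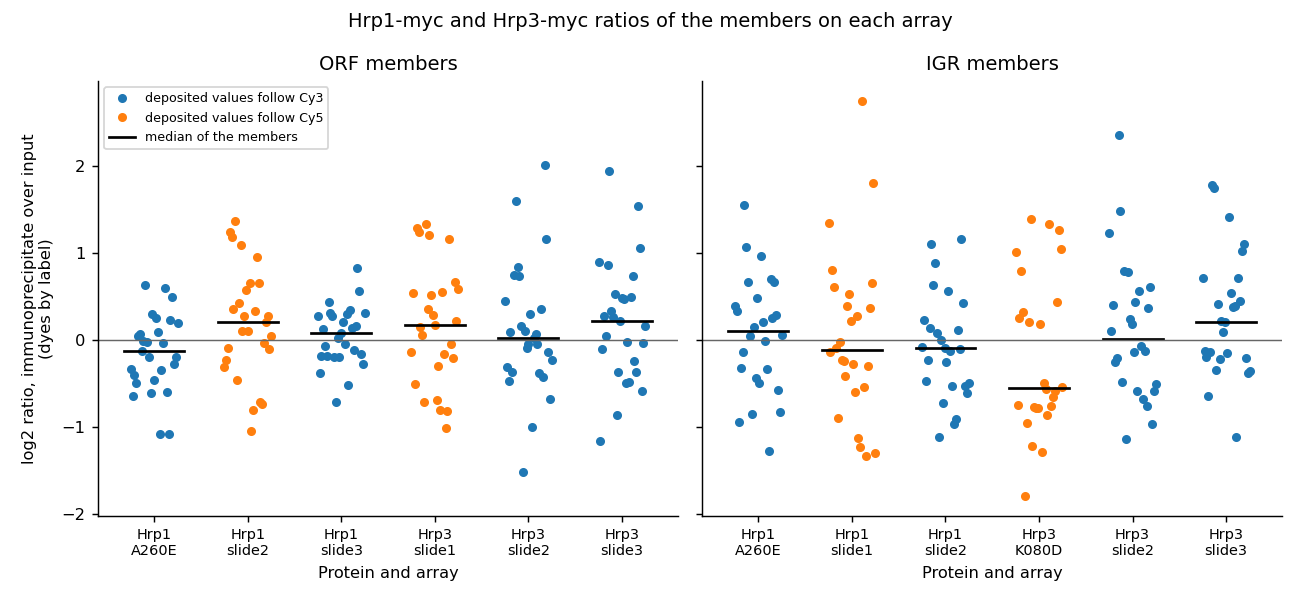
Log2 ratio of immunoprecipitate over input, with dyes by label (vertical axis), of each ORF member (left) and IGR member (right) on every Hrp1-myc and Hrp3-myc array (horizontal axis), with black bars at the member median. Orange arrays are those whose deposited values follow Cy5, and on the Hrp3 IGR array K080D, which is one of them, IGR-SPCC306.08c lies at −1.79.

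Turning the array whose deposited values follow Cy5, a choice made after seeing the data, gave calls for Hrp3 at 2 IGR members beside the wtf8 end. IGR-SPCC306.08c had log2 ratios of −1.79 on array K080D, 2.36 on slide2 and 1.78 on slide3 with dyes by label, and averaged 1.98 ± 0.27 (SE) with the sign of K080D turned (limma, adjusted p = 0.0267). IGR-SPCC306.11 had −0.96, 1.49 and 1.75, and averaged 1.40 ± 0.28 (SE) in that reading (limma, adjusted p = 0.0378). Of all IGRs, 2.16% were called higher for Hrp3 in this reading. No member was called higher for Hrp1 in this reading, neither among ORFs (0.0204% of all) nor among IGRs (0.0403%), where IGR-SPCC306.08c had an adjusted p of 0.193 by limma, and none was for Hrp3 over ORFs (1.41%). No member was called lower in any set (0.204% and 0.0% of all ORFs and IGRs for Hrp1, 0.347% and 0.363% for Hrp3). With that array left out instead, limma called 4 IGR members higher and 1 lower for Hrp3, against 11.4% and 6.67% of all IGRs, and 5 ORF members higher and 3 lower, against 15.8% and 11.7%. The Hrp3 IGRs were those of SPCC306.02c, SPCC306.08c, SPCC306.11 and SPCC364.06 (higher) and psk1 (lower), and the Hrp3 ORFs SPCC306.02c, SPCC306.08c, SPCC306.11, SPCC364.06 and SPCC4G3.01 (higher) and SPCC306.04c, SPCC4G3.11 and SPCC4G3.16 (lower). For Hrp1 it called 4 IGR members higher and 2 lower, against 4.86% and 5.2%, and 0 ORF members, against 3.8% and 5.31%. The Hrp1 IGRs were those of SPCC306.08c, SPCC306.11, SPCC4G3.01 and alp16 (higher) and SPCC4G3.17 and psk1 (lower). In these fits on the 2 remaining arrays, IGR-SPCC306.08c and IGR-SPCC306.11 were among the higher IGRs for both proteins as labelled. The Hrp1 arrays hold values that are also labelled H3, so this overlap cannot be read as binding of both proteins.

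The deposited H3 values equalled those of the 6 Hrp1-myc arrays, within 0.01 on the log2 scale, at between 99.72% and 99.96% of the spots, each H3 array matching 1 Hrp1 array. No other pair among the 156 pairs of columns compared shared more than 15.79% of its values. The H3 labels give the immunoprecipitate in Cy5 on array slideX, whose ORF and IGR parts match the Hrp1 arrays slide2 and slide1 that correlated negatively with their replicates. Whether these hybridisations hold Hrp1-myc or H3 cannot be told from the files. The values follow 1 dye relative to the median of the array, so they are levels of spot signal and not enrichment over input.

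Read as such levels, 0 of 26 measured ORF members differed from the array median by limma, against 4.78% of all ORFs higher and 6.21% lower, and an unadjusted p under 0.05 was found at 6 members, against 32.2%. The highest ORF level was that of mdh1 (log2 level 1.02 ± 0.36, SE, limma adjusted p = 0.10) and the lowest that of SPCC306.07c (−1.51 ± 0.43, SE, limma adjusted p = 0.063). Of the IGR members 4 were called higher and 4 lower, against 16.8% and 16.9% of all IGRs, and 15 had an unadjusted p under 0.05, against 45.8%. Without slide20, 3 IGR members were called higher and 1 lower, against 8.6% and 8.67% of all IGRs. Without the H3 array A260E slide1, which matches the Hrp1 array A260E, 1 ORF member was called higher and 2 lower, against 5.22% and 8.34% of all ORFs. IGR-SPCC306.11 had log2 levels of 2.39, 2.55 and 1.78 on arrays A260E slide1, slide20 and slideX, and IGR-SPCC4G3.01 (ser3, of serine synthesis) had 1.92, 1.86 and 1.53. IGR-SPCC306.08c had 1.13, 1.35 and 1.28, and IGR-alp16 had 1.64, 0.76 and 0.93. IGR-SPCC306.02c, IGR-SPCC306.06c, IGR-SPCC4G3.18 (rix1) and IGR-SPCC364.06 were called lower, with means from −1.84 to −0.94. The higher and the lower IGRs lie among each other along the segment, and its median was 0.12, against −0.03 over all IGRs.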

How the data were processed

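Chromatin fragments were hybridised to 2-colour spotted arrays with 2 spots per feature, and groups, dyes and replicates were taken from the labels, with the exceptions named above. Spot and background intensities of Cy3 and Cy5 come from the deposited scanner output. Values that the authors deposited are Lowess-normalized log2 ratios for methylation, and for the Hrp arrays log10 values that follow a single dye. The deposited log2 values of the H3 arrays are the Hrp1 values in another log base. The 2 deposited columns of expression ratios name no features and were not used here.

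Intensities were background corrected with normexp (offset 50) in limma 3.58.1 under R 4.3.3. Loess was applied to methylation ratios, 1 scanner file at a time, and Hrp ratios and H3 values were centred on the array median. H3K9me2 IGR values are the deposited ratios, since array B1 has no scanner file here. The 2.0 cut-off in 3 data points follows the methods. Genes were ordered with the RefSeq table of ASM294v3 (4682 ORF and 4763 IGR features placed) in Python 3.11.15 with pandas 2.3.3 and numpy 2.4.6, and the wtf copies were aligned with blastn 2.17.0. The limma fits and the high rule were tested on simulated data. The simulated Hrp arrays were drawn independently and held no array that correlated negatively with the others, so this checks the code and not the measured Hrp sets. Array number limits the precision, and where separate cultures are not stated p-values measure only the spread between arrays.

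Named are, for each clone, the 3 ORFs with the largest and the 2 with the smallest mean H3K4me2 ratio and the one with the largest H3K9me2 mean, the genes of the selection rule, the 5 ORFs outside each end, the 3 largest IGRs for each mark and the first and last member of each stretch and every member called in a fit that the text reports in full. Further features named at the edges, SPCC306.02c, and Hrp extremes were chosen after their values were seen. The members and lists were chosen with earlier results of these data known.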

Additional observations from a re-analysis of the deposited data

How the results depend on the processing

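The number of arrays limits these values, and those of H3K9me2 most, since its arrays hardly correlated. Over 22 results and their alternatives, 100 planned and 14 added values stayed within the spread between arrays or within 1.5 times the count, 31 planned and 5 added values moved, and the cause was not tested. A cut-off of 1.5 in place of 2.0 gave 18 (H3K4me2 ORF), 17 (H3K4me2 IGR), 9 (H3K9me2 ORF) and 9 (H3K9me2 IGR) high members, against 12.2%, 4.96%, 10.1% and 12.6% of all features. With array B1 read by its ORF label, 2 ORFs were high for H3K9me2 (3.55% of all), the median was −0.33 and the stretch held 0 ORFs, the last an alternative added after seeing the data. Centring the deposited IGR ratios left 2 high IGRs (2.35% of all). Leaving out 1 array, with fewer data points then needed to pass, gave 8 to 10 high IGRs for H3K4me2 (3.83% to 4.17% of all), 9 to 15 high ORFs (9.64% to 20.7%) and 6 to 11 high IGRs (9.84% to 22.9%) for H3K9me2, an H3K4me2 IGR median of 0.86 to 0.95 and an H3K9me2 IGR median of 0.49 to 0.86. The H3K4me2 IGR median was 0.79 with the deposited ratios and 0.86 with no background correction. Over the members between the wtf copies alone, a set chosen after seeing the data, the H3K4me2 medians were 1.34 (ORF) and 1.10 (IGR). The H3K4me2 stretch held 17 ORFs with a window of 3 and 17 at a threshold of 1.0, and the H3K9me2 stretch held 15 and 8, and 9 to 16 without 1 array. For Hrp1 IGRs the deposited values, which follow 1 dye, gave 4 members called higher (18.3% of all), and leaving out 1 array 0 to 4 (0.0% to 4.86%). For Hrp3, the ORF median was −0.0225 with the array that follows Cy5 turned, 0.55 with the deposited values and 0.26 with no background correction. Leaving out 1 array gave 0 to 5 Hrp3 ORFs (0.0% to 15.8% of all) and 0 to 4 Hrp3 IGRs (0.0% to 11.4%) called higher, and turning the array gave 2 IGRs (2.16%). For the values labelled H3, leaving out 1 array gave 0 to 3 ORFs (0.346% to 13.6% of all) and 4 to 10 IGRs (17.3% to 47.0%) called, and turning slideX gave 0 IGRs (0.0%), although these values are a dye level with no direction to turn. For the H3K9me2 IGRs, median centring of scanner ratios, no background correction and a filter on dim spots were not run, since array B1 has no scanner file here. No paired analysis was possible because both strains, or immunoprecipitate and input, share each array and the ratio is formed within it, so no replicate number pairs samples of 2 groups.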
